A study of Homo sapiens with 6 samples.

Results

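The genes described here are 39 genes of protein folding and quality control in the endoplasmic reticulum (ER), out of 67140 gene identifiers in the series. They were taken by name: chaperones with their cofactors, the lectin cycle, oxidases, the translocon, ER-associated degradation (ERAD) and the sensors and transcription factors of the unfolded protein response, with the disulfide isomerases left out. Each of the 39 names matched a single identifier, and all 39 passed the filter on low values. RNA sequencing was made on 6 libraries from CAPAN-2, an established line of human pancreatic ductal adenocarcinoma, 3 labelled as controls without SIRT4 overexpression (control) and 3 labelled as SIRT4 overexpression (SIRT4). No vector, duration of overexpression, number of clones or culture condition was stated in the labels. Nor do they state that replicates came from separate cultures, so every p-value reflects library-to-library spread, possibly technical.

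Proteins that enter the secretory pathway are folded in the ER by the Hsp70 chaperone BiP (HSPA5), the Hsp90 chaperone GRP94 (HSP90B1) and the lectins calnexin and calreticulin, and those that fail are sent to the cytosol for degradation by the proteasome. When unfolded protein builds up, 3 membrane sensors signal to the nucleus: IRE1 (ERN1), which splices the XBP1 transcript; ATF6, which is cut in the Golgi to release a transcription factor; and PERK (EIF2AK3), which slows translation and favours that of ATF4. Secretory epithelia such as the exocrine pancreas depend on these arms.

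Deposited totals ran from 50945991 to 65156041 units per library, with the largest in SIRT4 replicate 1. Values given in units are not scaled to these totals. SIRT4 itself held 144, 101 and 106 units in controls against 215, 144 and 208 with SIRT4. In CPM (units scaled to a common effective library size) this was 2.08 ± 0.34 and 3.23 ± 0.41 (SD, n = 3 per group), and the groups did not overlap. The log2 fold change was 0.63 (SE 0.21), and its p, by the quasi-likelihood test of edgeR after Benjamini-Hochberg adjustment, was 0.0752, short of the 0.05 used as the threshold throughout. Of 10 ductal epithelial markers 9 passed the filter on low values, while none of 6 acinar markers did; of the 9, 3 (KRT8, KRT18 and KRT19) were higher and 1 (SOX9) lower in SIRT4 libraries. PNLIP and AMY2A of the acinar list were at 0 in all 6 libraries. So were COL1A2, DCN and FAP of the fibroblast list and CD3E of the leukocyte list. Of 8 fibroblast markers 3 passed the filter, and of 6 leukocyte markers 2 did. COL1A1 was at 175 ± 7.3 CPM in controls and 169.6 ± 3.3 CPM with SIRT4. In the same order COL3A1 was at 5.2 and 7.1, PDGFRB at 2.8 and 2.2, CD14 at 2.3 and 3.4 and CSF1R at 0.13 and 0.21 CPM. No fibroblast or leukocyte marker was higher or lower at the threshold. Of 5 nuclear-retained RNAs 2 were lower and none higher in SIRT4 libraries; their part in the results was not tested. Over all 20786 genes tested, 1950 were higher and 1595 lower in SIRT4 libraries, and 978, 1021 and 1058 were lower when control replicate 3, SIRT4 replicate 2 or SIRT4 replicate 3 was left out.

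The ER genes did not move as a block. In SIRT4 libraries the sensor gene ERN1 and the chaperone gene HSPA5 fell the most, while the lectin chaperone gene CALR and the cochaperone gene SDF2L1 rose. Of the 10 ERAD genes 1 passed the threshold (10%), where 17.1% of all genes tested and 36.4% of 22 further ERAD genes did. Of the 39 genes 8 were higher and 6 lower at an edgeR adjusted p under 0.05, where 9.38% of all genes tested were higher and 7.67% lower. Both directions together took 35.9% of the 39 genes, against 17.1% of all genes tested and 26.3% of the 12032 genes with a mean of at least 5 CPM, a level that all 39 reached. The median log2 fold change of the 39 was -0.03, beside -0.02 for all genes tested. With libraries scaled by their size only, 7 were higher and 8 lower, since HSP90B1 was lost and ATF6B and CREB3L2 were gained. The values of the 2 groups did not overlap for 11 genes that were higher and 10 that were lower with SIRT4, which is 21 of 39, where 37.6% of all genes tested had groups that did not overlap. That share includes genes of low level, and none was taken for genes at 5 CPM or more. In bulk RNA, fewer cells that express a gene and less RNA per cell cannot be told apart. No gene that passed reversed its direction under any of the 15 alternatives.

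**Figure D1:**
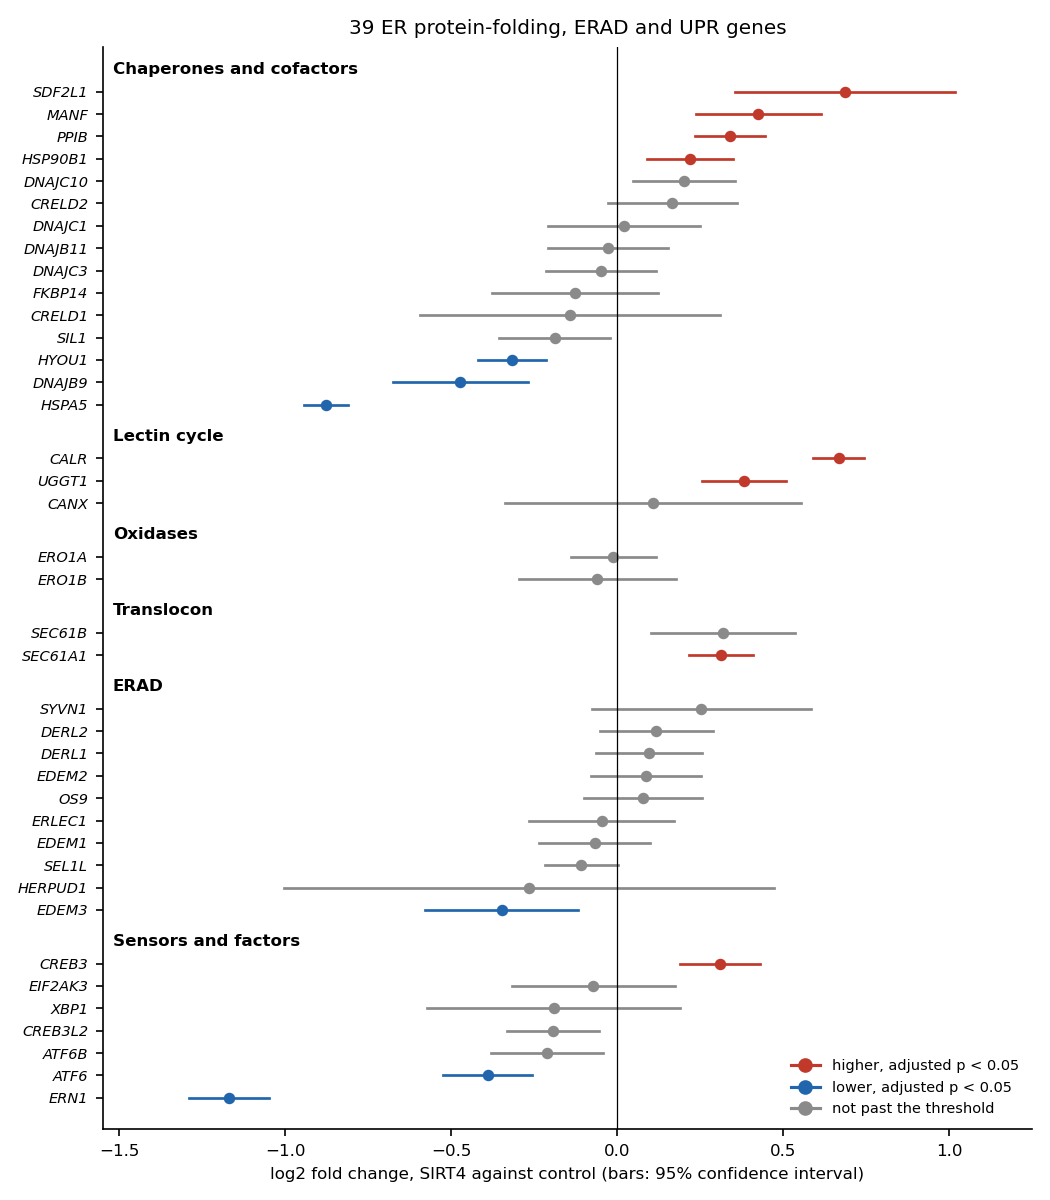
Log2 fold change of SIRT4 against control (horizontal axis) for the 39 genes, grouped by role; points are the fitted values and bars their 95% confidence intervals, red for higher, blue for lower and grey for not past the threshold. HSPA5 (-0.88) and ERN1 (-1.17) stand to the left of the other genes, and SDF2L1 (0.69) and CALR (0.67) to the right.

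Promoters are shown because genes that share one known element moved in opposite directions. The ER stress response element ERSE, which is CCAAT and CCACG with 9 bases of any kind between, is bound by NF-Y together with ATF6 or XBP1, and ERSE-II, ATTGG and CCACG with 1 base between, is a related form. Both were searched on both strands in RefSeq promoters on GRCh38.p14, from 250 bases before to 50 after each start, which 36 of the 39 genes had; both contain a CCAAT box, which 28 of the 36 genes and 39.7% of all genes with a promoter had. Exact ERSE matches lay in promoters of 7 of the 36 genes (CALR, CANX, CRELD2, ERO1B, HSP90B1, HSPA5 and XBP1), where 0.0916% of 27305 genes with a promoter had one. Exact ERSE-II matches lay in 3 others (HERPUD1, HYOU1 and SDF2L1), where 0.0696% of those genes had one. Several of the 39 genes are known for these elements, so their share is a property of the choice. Bases upstream of both the RefSeq and the GENCODE start are printed 5′ to 3′ on the strand of the gene, with exact matches in capitals. The lower genes are HSPA5 (ERSE) and the BiP cofactor gene HYOU1 (ERSE-II at 2 sites, the first overlapping the UPRE core TGACGTGG); the higher are CALR (ERSE) and SDF2L1 (ERSE-II); HERPUD1, which did not pass, holds ERSE-II and TTGCATCA, a core of the amino acid response element.
HSPA5, chr9:125241344-125241593, minus strand: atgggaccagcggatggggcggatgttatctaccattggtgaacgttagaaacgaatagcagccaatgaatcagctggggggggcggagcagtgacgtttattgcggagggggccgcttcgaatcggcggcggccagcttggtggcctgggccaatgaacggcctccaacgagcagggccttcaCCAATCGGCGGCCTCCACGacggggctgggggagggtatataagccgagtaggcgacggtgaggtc
HYOU1, chr11:119057206-119057455, minus strand: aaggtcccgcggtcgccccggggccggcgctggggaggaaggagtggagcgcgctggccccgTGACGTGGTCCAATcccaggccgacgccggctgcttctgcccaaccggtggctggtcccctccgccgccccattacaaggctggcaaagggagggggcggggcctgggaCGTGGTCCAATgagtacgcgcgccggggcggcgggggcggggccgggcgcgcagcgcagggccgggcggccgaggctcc
CALR, chr19:12938359-12938577, plus strand: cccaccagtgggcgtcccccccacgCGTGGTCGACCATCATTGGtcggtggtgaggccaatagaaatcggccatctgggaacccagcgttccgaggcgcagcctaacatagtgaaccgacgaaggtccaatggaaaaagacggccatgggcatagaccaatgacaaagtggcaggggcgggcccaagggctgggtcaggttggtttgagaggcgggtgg
SDF2L1, chr22:21642052-21642260, plus strand: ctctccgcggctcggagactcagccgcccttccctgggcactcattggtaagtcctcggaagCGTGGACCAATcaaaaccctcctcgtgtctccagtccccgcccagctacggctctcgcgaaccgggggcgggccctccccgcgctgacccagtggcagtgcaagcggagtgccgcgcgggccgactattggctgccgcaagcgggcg
HERPUD1, chr16:56931892-56932047, plus strand: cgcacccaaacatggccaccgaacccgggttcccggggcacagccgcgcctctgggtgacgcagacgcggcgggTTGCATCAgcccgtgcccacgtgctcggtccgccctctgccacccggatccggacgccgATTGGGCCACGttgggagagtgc

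Genes with these elements went in both directions. Among all genes at 5 CPM or more, 15.1% were higher and 11.2% lower. Of the 10 genes with an exact ERSE or ERSE-II, 3 were higher (CALR, HSP90B1 and SDF2L1), 2 lower (HSPA5 and HYOU1) and 5 did not pass. The calls of HSP90B1 and SDF2L1 did not hold in 6 and 2 of the 15 alternatives. Of the 26 genes with neither element, 5 were higher, 4 lower and 17 did not pass. Some windows of these genes did not reach the GENCODE start, where the bases were then not searched. The SIL1 window was at 139198319 to 139198618, with the GENCODE start at 139293557 on the minus strand. The DNAJB11 window was at 186570470 to 186570769, with the GENCODE start at 186567403 on the plus strand. HSPA5, at -0.88 on the log2 scale, had its ERSE at bases -66 to -48 from the RefSeq start, and CALR, at 0.67, had its own in the opposite orientation at -225 to -207. HSP90B1 held 2 exact sites, at -194 to -176 and at -89 to -71. With up to 1 mismatch, 14 of the 36 genes had an ERSE, where 1.89% of all genes had one. ERN1, the gene with the largest change, had neither element in this window, even with 1 mismatch; its RefSeq start lies downstream of the GENCODE one. The UPRE core was found in DNAJC10 and HYOU1 (0.927% of all genes) and the amino acid response core in HERPUD1 alone (1.08% of all genes). A match describes the letters in the window and is not evidence of binding.

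**Figure D2:**
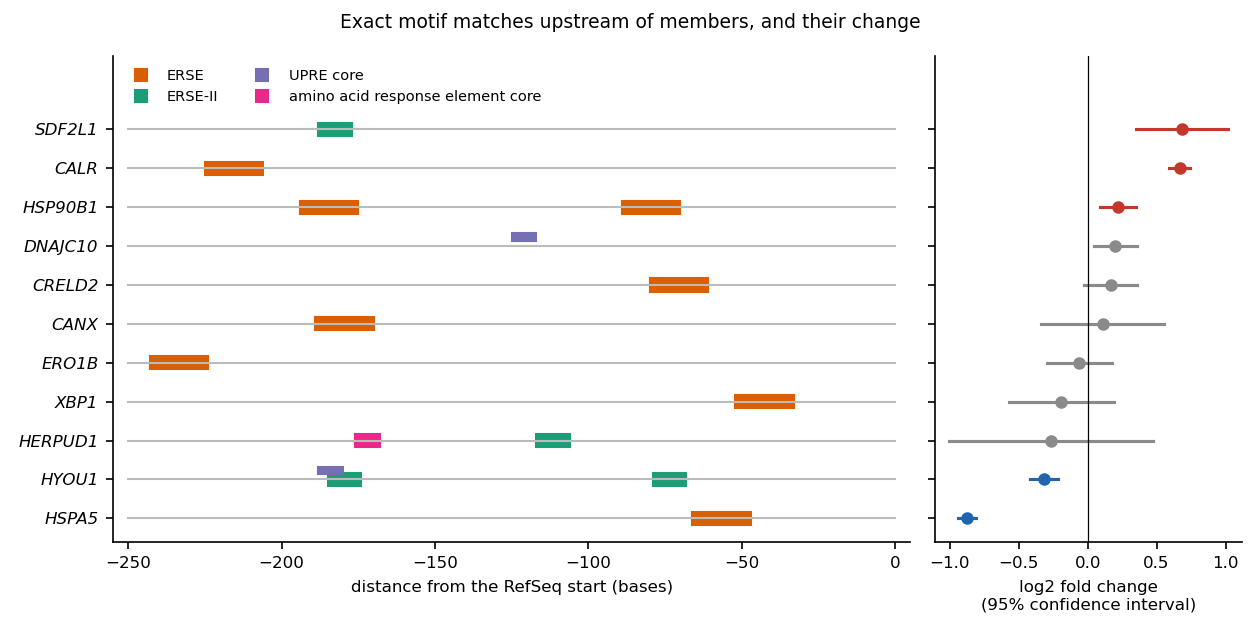
Exact matches of 4 motifs (coloured blocks; horizontal axis, distance in bases from the RefSeq start) upstream of the 11 genes that hold one, beside the log2 fold change with its 95% confidence interval (right panel; red higher, blue lower, grey not past the threshold). For CANX the most downstream RefSeq start with a match is drawn. The ERSE is present in CALR (0.67) as well as in HSPA5 (-0.88), and ERSE-II in SDF2L1 (0.69) as well as in HYOU1 (-0.32).

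The most abundant of the chaperones, HSPA5, with the single exact ERSE shown, is the Hsp70 that binds nascent and unfolded chains and holds the sensors inactive (ENSG00000044574, GRCh38 chromosome 9, 125234853 to 125241330, minus strand). It was at 1783, 1759 and 1763 CPM in controls against 966, 961 and 959 CPM with SIRT4. The groups lay far apart and each was tight. It fell by 0.88 on the log2 scale (SE 0.03, edgeR adjusted p = 3.65e-06), from 1768 ± 13.0 to 962 ± 3.7 CPM (SD, n = 3 per group). HYOU1, the large Hsp70-like protein that releases ADP from BiP (GRCh38 chromosome 11, 119044189 to 119057202, minus strand), was at 545, 535 and 525 CPM in controls against 407, 432 and 449 CPM with SIRT4. It fell by 0.32 (SE 0.04, adjusted p = 0.00252), with all 3 SIRT4 libraries below every control. SIL1, the other nucleotide exchange factor of BiP, was at 41.0 ± 2.5 and 36.0 ± 1.1 CPM, a log2 fold change of -0.19 (adjusted p = 0.124).

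HSP90B1, the Hsp90 of the ER lumen, went the other way (ENSG00000166598, GRCh38 chromosome 12, 103930107 to 103953645, plus strand). It was at 661, 667 and 611 CPM in control and 792, 766 and 699.7 CPM in SIRT4 libraries. The lowest SIRT4 library stood just above the highest control, and the log2 fold change was 0.22 (SE 0.06, edgeR adjusted p = 0.0318). This call did not hold in 6 of the 15 alternatives: its adjusted p was 0.0784 with library size only, 0.0714, 0.0577 and 0.105 when control replicate 1, 2 or 3 was left out, and 0.0874 and 0.101 when SIRT4 replicate 1 or 2 was. HSPA5 and HSP90B1 have processed pseudogenes, with which the counting could share their reads.

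Among the J-domain cochaperones, which stimulate BiP and hand it clients, 1 of 5 passed, where 26.3% of all genes at 5 CPM or more did. DNAJB9 (ERdj4), which in hamster cells keeps IRE1 repressed through BiP, was at 26.9, 25.7 and 29.5 CPM in control and 20.7, 19.7 and 18.7 CPM in SIRT4 libraries. Every SIRT4 value was lower, and it fell by 0.47 on the log2 scale (SE 0.09, edgeR adjusted p = 0.00919). It shares 183 exon bases with THAP5 and 99 with PNPLA8 on the opposite strand. THAP5 held 1582 to 1671 units in controls against 1069 to 1577 with SIRT4, and PNPLA8 1525 to 1742 against 1741 to 2026. DNAJC10 (ERdj5), a reductase that serves ERAD, was higher in all 3 SIRT4 libraries, at 142 ± 5.5 against 123 ± 9.9 CPM. Its log2 fold change of 0.20 had an edgeR adjusted p of 0.0802, and of 0.0397 without control replicate 3 (range over the 15 alternatives 0.0397 to 0.213). DNAJB11 (log2 fold change -0.03, 95% interval -0.21 to 0.15), DNAJC1 (0.02, -0.21 to 0.25) and DNAJC3 (-0.05, -0.21 to 0.12) had groups that overlapped. DNAJB11 and DNAJC3 are BiP cochaperones of the lumen, and DNAJC1 anchors BiP near the translocon.

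SDF2L1, a BiP cofactor that forms a complex with DNAJB11 (ENSG00000128228, GRCh38 chromosome 22, 21642261 to 21644298, plus strand), had the largest rise. It was at 26.1, 17.5 and 23.8 CPM in control and 38.2, 36.2 and 34.1 CPM in SIRT4 libraries. The control libraries differed more among themselves than the SIRT4 libraries, and the log2 fold change was 0.69 (SE 0.14, edgeR adjusted p = 0.0153). It missed the threshold narrowly when SIRT4 replicate 1 (adjusted p = 0.0545) or replicate 2 (0.0527) was left out. Its rank above CALR did not hold without control replicate 2, where SDF2L1 rose by 0.53 and CALR by 0.65. MANF, a secreted neurotrophic factor that binds BiP, was at 25.8, 28.9 and 28.5 CPM in control and 36.0, 39.9 and 35.8 CPM in SIRT4 libraries. The groups did not overlap, and it rose by 0.42 (SE 0.08, adjusted p = 0.0103).

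PPIB, cyclophilin B, a proline isomerase of the lumen, was at 199.8, 190.4 and 202 CPM in controls against 245, 259 and 245 CPM with SIRT4. It rose by 0.34 on the log2 scale (SE 0.05, edgeR adjusted p = 0.00199). Its exons share 519 bases, 27.2% of their length, with SNX22 on the opposite strand, and no strand setting was stated. SNX22 held 796 to 961 units in control libraries. With SIRT4 it held 1391, 857 and 993 units, the highest in replicate 1, the library with the largest total. The other isomerase, FKBP14 (-0.13, 95% interval -0.38 to 0.12), and the cysteine-rich proteins CRELD1 (-0.14, -0.60 to 0.31) and CRELD2 (0.17, -0.03 to 0.36) had overlapping groups. Over the 15 chaperones and cofactors, 4 were higher, 3 lower and 8 did not pass, with a median log2 fold change of -0.03. That is 46.7% past the threshold, against 26.3% of all genes at 5 CPM or more.

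The lectin cycle retains glycoproteins until they fold. CALR, calreticulin, the soluble lectin and calcium store of the lumen (1 exact ERSE; ENSG00000179218, GRCh38 chromosome 19, 12938578 to 12944489, plus strand), was at 564, 546 and 571 CPM in controls against 889, 888 and 893 CPM with SIRT4. The groups were widely separated, and CALR rose by 0.67 on the log2 scale (SE 0.03, edgeR adjusted p = 2.2e-05), from 560.3 ± 12.7 to 890.01 ± 2.8 CPM (SD, n = 3 per group). UGGT1, the glucosyltransferase that tags misfolded glycoproteins for another round, was at 179, 159 and 174 CPM in controls against 216, 224 and 227 CPM with SIRT4. It rose by 0.38 (SE 0.05, adjusted p = 0.00277), with no overlap between the groups.

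CANX, calnexin, the membrane-bound counterpart of calreticulin, was at 646, 671 and 659 CPM in controls against 776, 528 and 826 CPM with SIRT4. SIRT4 replicate 2 lay below every control and the other two above, so the log2 fold change of 0.11 (SE 0.18) had an edgeR adjusted p of 0.748. Without that library it was 0.28 with an adjusted p of 0.00982, the lowest over the 15 alternatives, where the highest was 0.991. Neither ERO1A nor ERO1B, the oxidases that recharge the disulfide isomerases, passed. ERO1A was at 146 ± 7.9 and 145 ± 4.7 CPM (log2 fold change -0.01, 95% interval -0.14 to 0.12), and ERO1B at 31.1 ± 4.1 and 29.9 ± 0.28 CPM (-0.06, -0.30 to 0.18).

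SEC61A1, the pore subunit of the channel through which nascent chains enter the ER, was at 271, 260.2 and 259 CPM in controls against 316, 337 and 328 CPM with SIRT4. All SIRT4 values were higher, and it rose by 0.31 on the log2 scale (SE 0.04, edgeR adjusted p = 0.00206). It shares 344 exon bases, 7.32% of its length, with RUVBL1 on the opposite strand, which held 5455 to 7005 units in control and 7746 to 9801 in SIRT4 libraries. SEC61B, a small subunit of the same channel, was at 28.99, 34.03 and 32.8 CPM in control and 43.6, 39.002 and 36.9 CPM in SIRT4 libraries. These did not overlap, and the log2 fold change of 0.32 (SE 0.09) had an adjusted p of 0.0529, and between 0.0188 and 0.148 over the 15 alternatives.

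**Figure D3:**
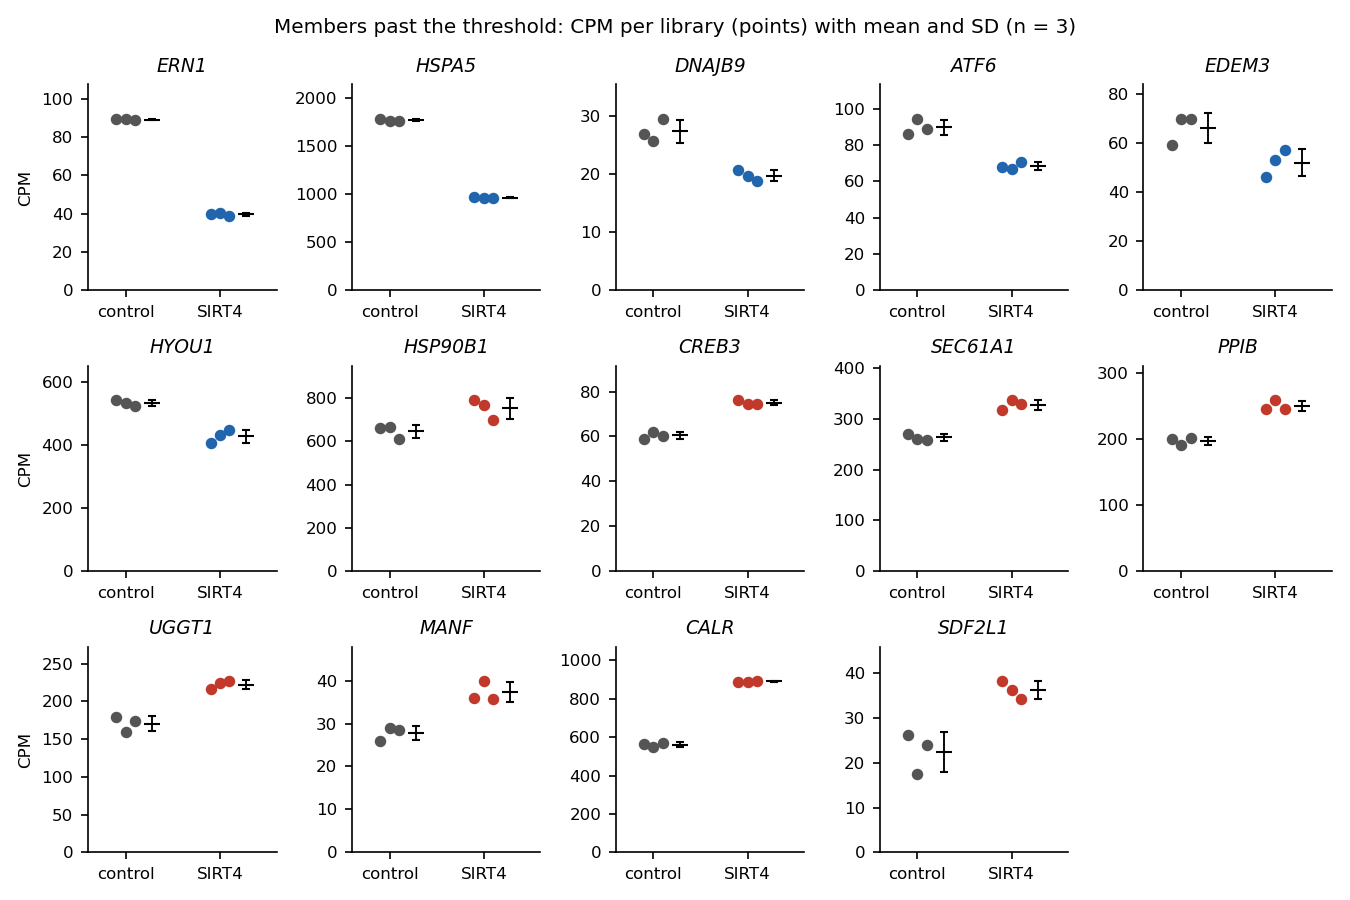
CPM per library (vertical axes, from 0) of the 14 genes past the threshold, ordered from the lowest to the highest log2 fold change; points are libraries and the bars beside them the mean and SD of 3. The groups do not overlap in any panel, with tight groups for ERN1, HSPA5 and CALR and a wider control group for SDF2L1.

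The order of abundance changed at the top of the list when levels were scaled by length. In CPM, without that scaling, HSPA5 stayed above CALR in SIRT4 libraries (962 against 890 CPM). Per length, as TPM, a level scaled by exon length and library, HSPA5 led in control at 1535 TPM, ahead of CALR at 701 TPM and HSP90B1 at 467 TPM. In SIRT4 libraries CALR led at 1086 TPM, ahead of HSPA5 at 816 TPM and HSP90B1 at 532 TPM. The TPM ratio of HSPA5 to CALR was 2.19, 2.24 and 2.15 in controls against 0.755, 0.751 and 0.746 with SIRT4: the order was inverted in each of the 3. The ratio of HSPA5 to HSP90B1 went from 3.29 ± 0.16 to 1.54 ± 0.10 (SD, n = 3 per group). HSPA5 made up 28.2% ± 0.24 of the summed TPM of the 39 genes in control and 15.5% ± 0.14 in SIRT4 libraries, and CALR 12.9% ± 0.18 and 20.6% ± 0.19.

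The summed TPM of the 15 chaperones and cofactors was 2987 ± 49.8 in control and 2396 ± 79.3 in SIRT4 libraries. Without HSPA5 the other 14 summed to 1452 ± 31.5 and 1581 ± 64.8, so the lower sum of the branch lay in HSPA5. The lectin genes summed to 1110.1 ± 18.2 and 1528 ± 73.6 TPM, the ERAD genes to 523 ± 14.01 and 516 ± 11.0, and the sensors and factors to 457 ± 20.0 and 412 ± 12.8. All 39 together were at 5444 ± 70.1 and 5276 ± 80.8 TPM (SD, n = 3 per group), with SIRT4 replicate 1, at 5363, level with control replicate 2.

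**Figure D4:**
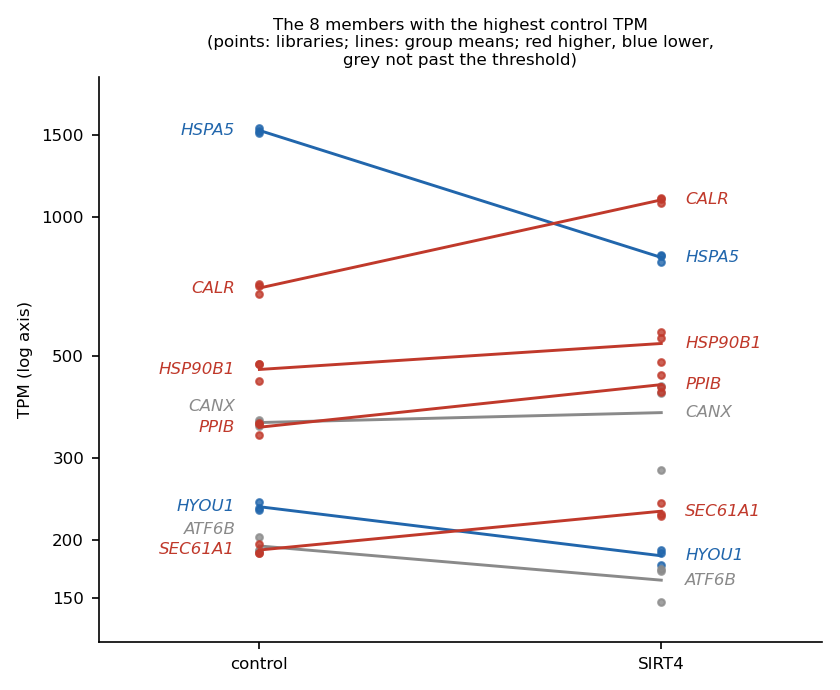
TPM (vertical axis, logarithmic) of the 8 genes most abundant in control, in control and SIRT4 libraries; points are libraries and lines join the group means. The lines of HSPA5 (1535 to 816 TPM) and CALR (701 to 1086 TPM) cross, and 1 CANX point in the SIRT4 group lies far below the other 2.

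ERAD recognises terminally misfolded proteins by their trimmed sugars and passes them through a ubiquitin ligase channel. Of its 10 genes 1 passed (10%, against 26.3% of all genes at 5 CPM or more), and their median log2 fold change was 0.02. EDEM3, a mannosidase that trims those sugars, was at 59.0, 69.9 and 69.7 CPM in control and 46.0, 53.0 and 57.0 CPM in SIRT4 libraries. It fell by 0.35 on the log2 scale (SE 0.10, edgeR adjusted p = 0.048), narrowly past the threshold. The adjusted p was above 0.05 in 7 of the 15 alternatives and at most 0.141: 0.052 with DESeq2 size factors, 0.0592 by limma-voom, and 0.132, 0.141, 0.124, 0.106 and 0.0514 when control replicate 2 or 3 or SIRT4 replicate 1, 2 or 3, in that order, was left out. Its relatives EDEM1 (-0.07, 95% interval -0.24 to 0.10) and EDEM2 (0.09, -0.08 to 0.25) had overlapping groups.

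The lectins OS9 and ERLEC1, which deliver trimmed glycoproteins to the ligase, had log2 fold changes of 0.08 (95% interval -0.10 to 0.26) and -0.05 (-0.26 to 0.17). The ligase SYVN1 (HRD1) was at 63.1, 77.5 and 64.2 CPM in control and 84.9, 92.8 and 66.5 CPM in SIRT4 libraries. SIRT4 replicate 3 fell among the controls, and the log2 fold change of 0.25 had an edgeR adjusted p of 0.28. SYVN1 shares 398 exon bases, 7.24% of its length, with FAU on the same strand. FAU held 9520 to 12983 units in controls against 10901 to 14165 with SIRT4, ranges that also carry the differences in library totals. Summed with the genes that share its exons on that strand, SYVN1 had a log2 fold change of 0.11 (edgeR adjusted p = 0.209). FAU holds most of the units in that sum. SEL1L, its adaptor, was slightly lower in all 3 SIRT4 libraries, at 130.4 ± 3.8 against 141 ± 3.8 CPM (log2 fold change -0.11, adjusted p = 0.171). The channel proteins DERL1 (0.10, -0.06 to 0.25) and DERL2 (0.12, -0.05 to 0.29) did not pass either.

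HERPUD1, a ubiquitin-like membrane protein that organises the ligase complex, varied within both groups. It was at 21.1, 39.3 and 37.0 CPM in control and 30.8, 30.4 and 19.7 CPM in SIRT4 libraries. Control replicate 1 and SIRT4 replicate 3 were the low libraries, and the log2 fold change of -0.27 had the wide 95% interval of -1.0 to 0.47. XBP1, also a target of this response, had a control library that stood apart, at 40.9, 36.2 and 56.7 CPM in controls against 37.9, 38.2 and 41.1 CPM with SIRT4 (-0.19, 95% interval -0.57 to 0.19). The spliced and unspliced forms of XBP1 were not separated here.

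Among the sensors, ERN1 changed the most of all 39 genes (ENSG00000178607, GRCh38 chromosome 17, 64039142 to 64130819, minus strand). ERN1 encodes IRE1, the kinase and endoribonuclease. It was at 89.4, 89.2 and 88.6 CPM in control and 40.0, 40.2 and 38.7 CPM in SIRT4 libraries. Both groups were tight, and it fell by 1.17 on the log2 scale (SE 0.05, edgeR adjusted p = 1.19e-05), the single change of at least 2-fold in this set. By TPM it went from rank 31 of the 39 in control, at 27.8 TPM, to among the lowest, at 12.1 TPM, where its libraries overlapped those of DERL2, also at 12.1 TPM, and of EIF2AK3, at 12.7 TPM.

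ATF6 was at 86.1, 94.5 and 88.9 CPM in control and 67.7, 67.0 and 70.7 CPM in SIRT4 libraries. Every SIRT4 library was lower, and it fell by 0.39 on the log2 scale (SE 0.06, edgeR adjusted p = 0.00317). Its paralog ATF6B, reported as a weak activator, was at 201, 205 and 217 CPM in controls against 159, 188 and 191 CPM with SIRT4. The direction was the same in all 3, at -0.21 with an adjusted p of 0.0921, and 0.0451 with library size only (range over the 15 alternatives 0.0451 to 0.242). EIF2AK3 (PERK) was at 21.97 ± 2.3 and 20.9 ± 1.6 CPM, with overlapping groups (-0.07, 95% interval -0.32 to 0.17).

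CREB3 and CREB3L2 are membrane-bound transcription factors that, like ATF6, are cut in the Golgi. CREB3 was at 59.1, 62.2 and 60.3 CPM in control and 76.3, 74.4 and 74.3 CPM in SIRT4 libraries. It rose by 0.31 on the log2 scale (SE 0.05, edgeR adjusted p = 0.00591) with no overlap. It shares 139 exon bases with GBA2 and 61 with TLN1 on the opposite strand. GBA2 held 4920 to 5855 units in controls against 4931 to 6488 with SIRT4, and TLN1 30959 to 38135 against 38380 to 46872. CREB3L2 was lower in all 3 SIRT4 libraries, at 56.9 ± 2.9 against 65.004 ± 1.3 CPM, with a log2 fold change of -0.19 that did not pass (adjusted p = 0.0656) but did with library size only (0.0326), the stricter filter (0.0462) and division by 4 (0.0423), with a range over the 15 alternatives of 0.0326 to 0.178. Of the 7 sensors and factors 1 was higher, 2 lower and 4 did not pass, with a median log2 fold change of -0.19. That is 42.9% past the threshold, against 26.3% of all genes at 5 CPM or more.

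Other genes of the same pathways were counted in 8 further lists, of which SEC62 and SEC63 are each in 2. Among all genes tested 17.1% passed in either direction (7.67% lower), and 26.3% (11.2% lower) of those at 5 CPM or more. Of the lists 46.7% passed for the PERK and ATF4 arm, 36.4% for further ERAD genes, 33.3% for other folding factors and 28.6% for sensor regulators. The share was 23.5% for ER exit, 21.7% for the translocon list, 14.3% for ER-phagy and 11.1% for glycosylation. Of 15 genes of the PERK and ATF4 arm 7 were lower and none higher, with a median log2 fold change of -0.50. TRIB3, a pseudokinase, was at 299, 284 and 317 CPM in controls against 126, 129 and 127 CPM with SIRT4 and fell by 1.23 on the log2 scale (SE 0.05, edgeR adjusted p = 7.79e-06). PPP1R15A, which restores translation by helping to dephosphorylate eIF2, was at 116, 116 and 124 CPM in controls against 58.3, 55.5 and 60.5 CPM with SIRT4 and fell by 1.03 (SE 0.06, edgeR adjusted p = 3.68e-05). The libraries of both genes were tightly grouped. ATF4 itself, named after its value was seen, was at 504 ± 12.4 and 490.3 ± 15.4 CPM (-0.04, edgeR adjusted p = 0.566). The death-associated factor DDIT3, likewise named after its value was seen, was at 106, 177 and 127 CPM in control and 103, 77.8 and 67.6 CPM in SIRT4 libraries, and its log2 fold change of -0.72 did not pass (adjusted p = 0.125).

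Of 22 further ERAD genes 5 were higher and 3 lower (median 0.01), with 3 higher when control replicate 2, SIRT4 replicate 1 or SIRT4 replicate 2 was left out. VCP, the ATPase that pulls substrates out of the membrane, was at 511, 471 and 520.3 CPM in controls against 734, 748 and 737 CPM with SIRT4. It rose by 0.56 on the log2 scale (SE 0.04, edgeR adjusted p = 0.000171), and its cofactor UFD1 by 0.36. The ligases RNF5 and MARCHF6 fell by 0.29 each.

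Of 23 genes of the translocon, targeting and signal peptidase 3 were higher and 2 lower (median 0.10), with 1 lower without SIRT4 replicate 1 or 2. TRAM1 and SSR4, membrane partners of the channel, rose by 0.36 and 0.33 on the log2 scale, while SRPRA, the receptor of the signal recognition particle, fell by 0.24 and SEC63, a J-domain partner of BiP at the channel, by 0.22. Of 18 tested glycosylation genes 2 were higher and none lower (median 0.02), namely the oligosaccharyltransferase subunits RPN1 and RPN2, which rose by 0.36 each, and with library size only 1 was lower. Of 17 genes of ER exit and retrieval 4 were higher and none lower (median 0.04), led by the COPII coat genes SEC23A and SEC23B, which rose by 0.26 each. The higher count was 2 when control replicate 2 or 3 or SIRT4 replicate 2 was left out, and the lower count 1 when SIRT4 replicate 3 was.

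Of 14 genes that process or regulate the sensors, partner their factors or belong to the same families, 2 were higher and 2 lower (median -0.01). RTCB, the ligase that joins spliced XBP1, and NFYC, a subunit of NF-Y, rose by 0.29 and 0.34 on the log2 scale. The Golgi protease MBTPS1, which cuts ATF6, and TMBIM6, a restraint on IRE1, fell by 0.32 and 0.17. The higher count was 1 without SIRT4 replicate 2, and the lower count was 1 without control replicate 1 or 2 or any SIRT4 replicate. Of 15 other folding factors 1 was higher and 4 lower (median -0.06): FKBP10 and SERPINH1, chaperones of collagen, fell by 0.47 and 0.36, and DNAJB12 rose by 0.30. DNAJB12 was lost when any control replicate or SIRT4 replicate 2 or 3 was left out, and the lower count was then 2 for control replicate 3 and 1 for SIRT4 replicate 1 or 2. Of 7 receptors of ER-phagy 1 was lower, CALCOCO1 (-0.48), and 2 were lower when SIRT4 replicate 2 or 3 was left out and under 5 other alternatives.

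**Figure D5:**
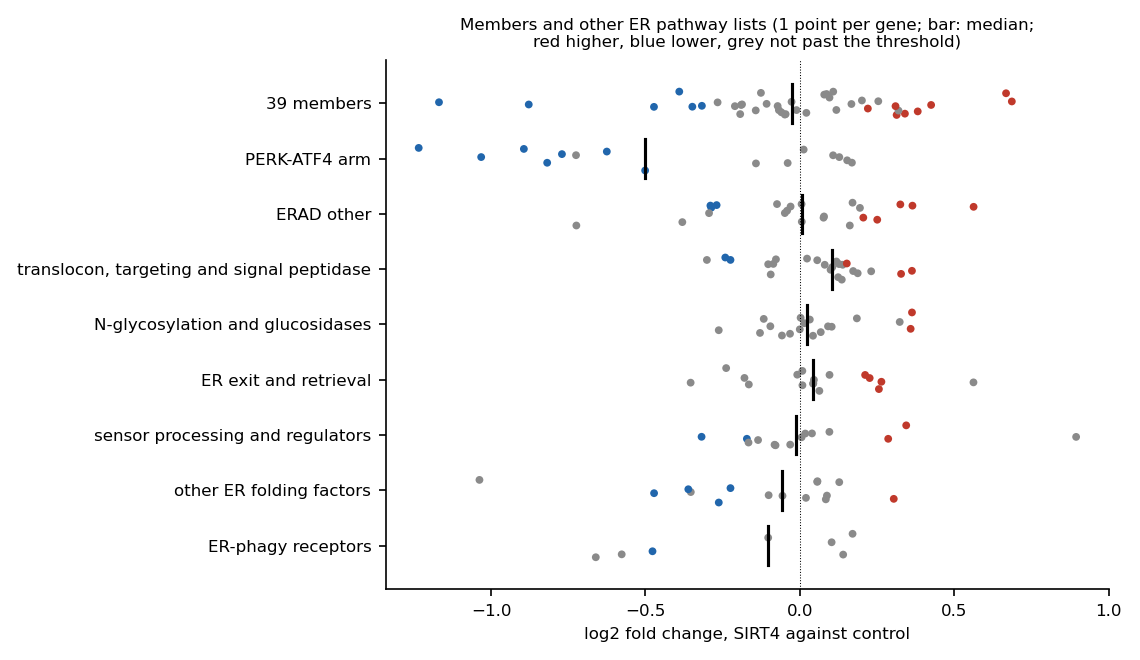
Log2 fold change (horizontal axis) of the 39 genes and of the tested genes of 8 other ER pathway lists; each point is a gene, red higher, blue lower and grey not past the threshold, and the black bar is the median. The PERK and ATF4 list has its median at -0.50, while the other medians lie between -0.10 and 0.10.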

How the data were processed

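RNA sequencing was made on 3 control and 3 SIRT4 libraries. The deposited values, whole numbers per Ensembl gene, were treated as estimated counts that had not been scaled, and rounding left them as they were. Per the submitters' processing notes the tools were STAR, featureCounts, Subread and DESeq2 and the build hg38; in the sources used here, versions, annotation and strandedness are not given. Low values piled up at 4 and 8 (in control replicate 1, 792 genes at 3 and 1278 at 4), so a unit may not be 1 fragment.

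Names came from a table that matched 60357 identifiers and from GENCODE release 29 (GRCh38), also the source of coordinates and exon lengths. In R 4.3.3, the whole table was fitted with edgeR 4.0.16 (filterByExpr, TMM, robust glmQLFit, glmQLFTest, no covariates), adjusting over all 20786 genes tested. Every adjusted p is from that fit unless another tool or setting is named. A standard error is the size of the log2 fold change divided by the root of F. TPM uses the union of annotated exons. The fit was tested on simulated data.

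The 39 genes and the lists were chosen with earlier results of these data known, so their counts are descriptions. All 39 are named, and from each pathway list the 2 higher and 2 lower called genes with the largest fold change, at most. The alternatives replaced TMM by DESeq2 size factors or by library size alone, the filter by none or by a stricter one (10 units in each of 3 libraries, mean CPM of 1), and the test by limma-voom (limma 3.58.1) or DESeq2 1.42.0; added the replicate block; divided values by 4; and left out each library. Summing each gene with those sharing its exons on the same strand was added after seeing the data.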

Additional observations from a re-analysis of the deposited data

How the results depend on the processing

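Over the 15 alternatives the count of higher genes among the 39 ran from 6 to 9 and that of lower genes from 5 to 8, each within 1.5 times the reported 8 and 6. Over all genes, leaving out 1 library gave 1312 to 1570 higher and 978 to 1204 lower genes, against 1950 and 1595. HSPA5, HYOU1, DNAJB9, MANF, PPIB, CALR, UGGT1, SEC61A1, ERN1, ATF6 and CREB3 passed under all 15. HSP90B1, SDF2L1 and EDEM3 did not (6, 2 and 7 alternatives), and DNAJC10, CANX, SEC61B, ATF6B and CREB3L2 passed under some (1, 1, 4, 1 and 3). Deviations of same-numbered libraries from their group means had correlations of 0.036, 0.046 and -0.015 across genes. Control replicates 1 and 2 correlated best with the SIRT4 library of the same number, and control replicate 3 with SIRT4 replicate 1 (0.028). Correlations this small cannot decide whether the numbers pair the samples. With the replicate block 1450 genes were higher and 1140 lower, and 8 and 6 of the 39; the list of sensor regulators and partners then had 1 gene in each direction. The median log2 fold change of all genes ran from -0.05 to -0.01. The causes were not tested. CRELD1, with the lowest mean of the 39 (15.9 CPM), had an interval of -0.60 to 0.31, the widest after HERPUD1.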
